A study of Rattus norvegicus with 29 samples.

Results

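Glycolysis and pyruvate metabolism were followed through 38 genes in nucleus accumbens shell from P rats, the alcohol-preferring line, from glucose uptake to the entry of pyruvate into mitochondria. The genes were chosen by name, and each was represented by the probe set that carried exactly its symbol and was brightest on average over all 29 arrays. Of the 38 genes, 35 had such a probe set, out of 14218 genes named by 1 symbol on the array, and 32 entered the tests. Hk2 and Pfkfb1 lay below the filter on dim probe sets, Gapdh was measured by control probe sets, and Pkm, Dlat and Pcx had no probe set of that single symbol.

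Glycolysis splits glucose into pyruvate in the cytosol and yields ATP and NADH. Pyruvate is then either reduced to lactate by lactate dehydrogenase or carried into mitochondria, where the pyruvate dehydrogenase complex turns it into acetyl-CoA for the tricarboxylic acid cycle. In brain, astrocytes are known for a high glycolytic capacity and for releasing lactate, and neurons for oxidative use of pyruvate. Where ethanol is oxidised by a dehydrogenase, NAD+ is reduced to NADH, cofactors that lactate dehydrogenase and the glycerol phosphate shuttle share. Whether such a shift occurred in this tissue was not measured.

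The nucleus accumbens shell is a ventral striatal region with dense dopamine input. P rats were bred for voluntary ethanol drinking, and the samples formed 3 groups: rats with continuous ethanol (n = 10), rats with limited access to ethanol (n = 10) and rats given water only (n = 9). The design names 10 samples in each group, so 1 water sample was not analysed here. Sex, age, ethanol concentration and length of access are not given in the sources used here, and all groups share the selected line. The comparisons ask which transcripts differ between each ethanol schedule and water and between the schedules. Both ethanol groups were compared with the same water arrays, so these comparisons are not independent.

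The log2 values had array medians of 8.17 to 8.21, and pairs of arrays correlated at 0.971 to 0.997 over the tested probe sets. Markers of striatal medium spiny neurons were bright, with Penk at 13.54, Ppp1r1b at 12.53 and Drd1 at 12.14 on average. On the second principal component, which held 16.5% of the variance, 5 arrays lay apart, between -22.2 and -15.6 against -3.30 or above for the rest: water replicates 2, 5 and 6 and limited access replicates 6 and 7. None of them belonged to the continuous group, so values without them are given below where they move a result. Since no label ties each sample to an animal of its own, the p-values below measure sample-to-sample spread that may be technical. In this bulk tissue, fewer cells of a type and less RNA per cell cannot be told apart.

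Transcript levels of the pathway differed little between the groups. With continuous ethanol against water, 0 of 32 genes passed an adjusted p of 0.05 (limma, Benjamini-Hochberg over 21729 probe sets), where 0.152% of all tested probe sets passed. An unadjusted p under 0.05 was reached by 6 of 32, or 18.8%, against 16.1% of all probe sets, so the share of the pathway genes was near the background. Pfkl, Pfkfb2, Tpi1, Pdhb and Dld had the higher level with continuous ethanol (15.6% against 9.62% of all probe sets), and Gpd1 had the lower one (3.12% against 6.48%). The median difference of the 32 genes was 0.012, beside 0.0047 for all tested probe sets.

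With limited access against water, 0 of 32 genes and 0% of all probe sets passed, while 4.44% of all probe sets reached an unadjusted p under 0.05, 2.1% above and 2.34% below water. Pfkfb2 and Tpi1, both above water, were the 2 genes (6.25%) that reached it. Between the schedules, 0 of 32 genes passed against 0.0046% of all probe sets, and 3 genes (9.38%) had an unadjusted p under 0.05 against 9.31%. Slc16a3 and Gpd1 were higher with limited access (6.25% against 3.56% of all probe sets), and Pdhb was lower (3.12% against 5.74%). A test for any difference among the 3 groups called 0 of 32 genes against 0.0828% of all probe sets, and 5 (15.6%) at an unadjusted p under 0.05 against 11.6%. The median difference of the 32 genes was 0.025 for limited access against water and -0.0049 for limited access against continuous ethanol, beside 0.00072 and -0.0053 for all tested probe sets.

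The intervals show how large a difference could have been missed. All 95% intervals of the 32 genes lay between -0.38 and 0.30 for continuous ethanol against water, between -0.24 and 0.21 for limited access against water and between -0.21 and 0.27 between the schedules. The difference was within 0.1 of 0 on the log2 scale for 27, 30 and 29 of the 32 genes. The median absolute difference of the 32 genes was 0.050, 0.034 and 0.024, beside 0.055, 0.038 and 0.043 for all tested probe sets. Against water, small differences were thus general and not a trait of the pathway. In each comparison the arrays of both groups overlapped for every one of the 32 genes. Groups that did not overlap were also rare among all tested probe sets, with 0.0322% for continuous ethanol against water, 0.0046% for limited access against water and 0% between the schedules, so nothing about the pathway is read from this count.

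**Figure D1:**
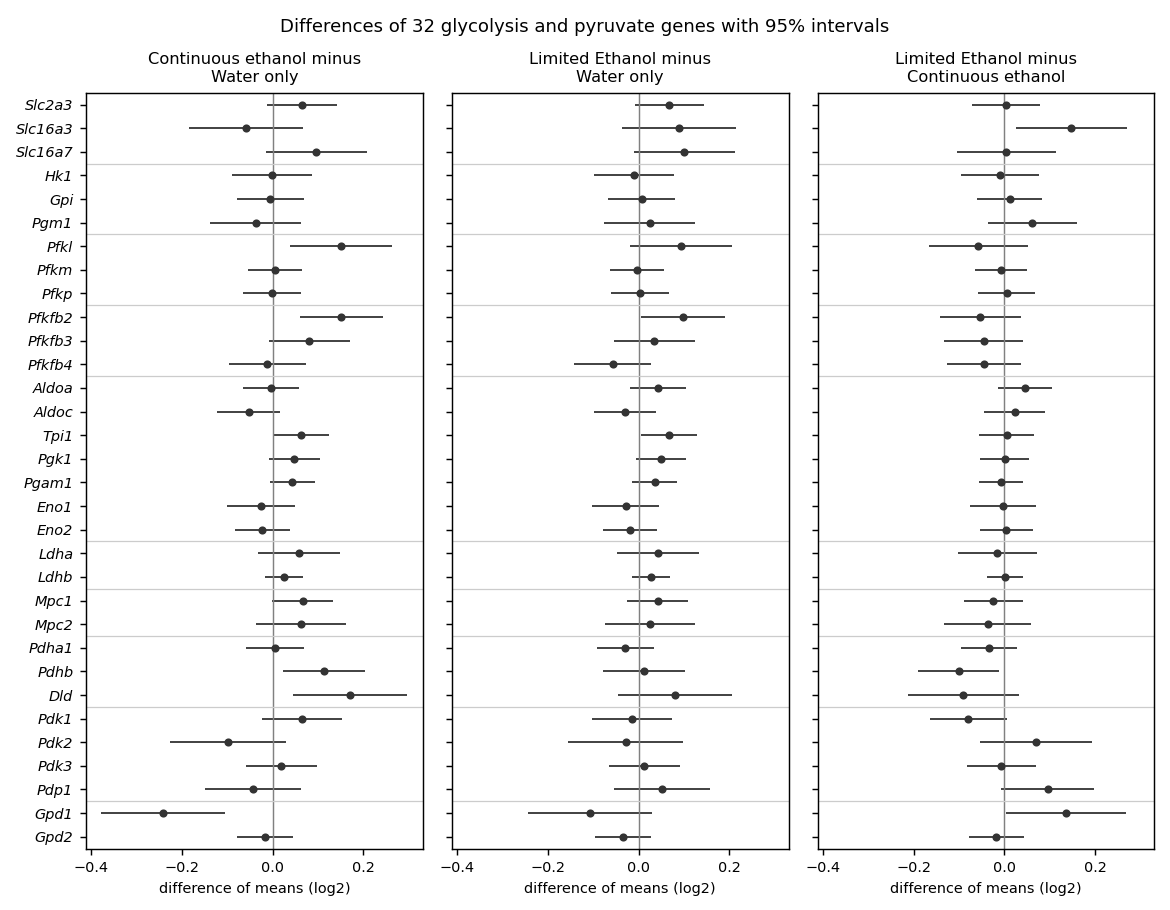
Differences of group means (log2, horizontal axis) for the 32 tested genes in the order of the pathway, with points for the difference and bars for its 95% interval; panels are the 3 comparisons and grey lines separate roles. Most intervals span 0, Gpd1 at -0.24 is the gene farthest from 0 for continuous ethanol against water, and Slc16a3 at 0.15 is the farthest between the schedules.

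Glucose and lactate transporters came first in the pathway. Slc2a3 encodes GLUT3, the glucose transporter of neurons, and Slc16a3 and Slc16a7 encode the monocarboxylate transporters MCT4 and MCT2, which carry lactate and pyruvate across the cell membrane. None of the 3 passed in any comparison. Slc16a7 (probe set 1370609_a_at) ran from 8.87 over a median of 9.09 to 9.18 in water, from 8.99 over 9.18 to 9.26 with limited access and from 8.81 over 9.19 to 9.32 with continuous ethanol. Water arrays were the lowest by median and the groups overlapped over most of their range. With limited access it was 0.10 ± 0.05 above water (SE; p = 0.0753, adjusted p = 0.972 by limma), and 9 of 10 arrays exceeded the water mean. With continuous ethanol it was 0.096 ± 0.054 above water (adjusted p = 0.383), and 7 of 10 arrays exceeded that mean.

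Slc2a3 (1372326_at) had a lowest, median and highest value of 10.82, 11.06 and 11.14 in water, of 11.02, 11.10 and 11.19 with limited access and of 10.94, 11.10 and 11.23 with continuous ethanol. The lowest value, that of water replicate 6, was 10.82 beside 10.99 for the next water array. The limited access mean exceeded that of water by 0.068 ± 0.038 (p = 0.0804, adjusted p = 0.972), and by 0.041 without water replicate 6. The continuous mean exceeded that of water by 0.064 ± 0.038 (adjusted p = 0.398).

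Slc16a3 (1368965_at) separated the schedules most among the pathway genes by p. Its values ran from 7.17 over 7.28 to 7.40 with continuous ethanol, from 7.20 over 7.41 to 7.84 with limited access and from 7.09 over 7.40 to 7.47 in water. The continuous group was the narrowest, and 8 of 10 limited access arrays lay above its mean. The schedules differed by 0.15 ± 0.06, limited access being higher, a ratio of 1.11 (95% interval 0.026 to 0.27; p = 0.0192, adjusted p = 0.526). The difference was 0.10 without limited access replicate 6, the array at 7.84, and 0.081 without the 5 arrays that lay apart. When the standard deviation (SD) of each array's values entered the model it was 0.054, and the level of Slc16a3 followed that SD across arrays, as given further on.

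For the brightest probe sets of the 3 tested genes of the first steps after uptake, the difference between continuous ethanol and water was at most 0.037 in size. Hk1 encodes hexokinase I, the main hexokinase of brain, which phosphorylates glucose, Gpi encodes the isomerase that makes fructose phosphate, and Pgm1 encodes phosphoglucomutase, the link to glycogen. With continuous ethanol against water Hk1 differed by -0.0010 (95% interval -0.089 to 0.087), Gpi by -0.0050 (-0.079 to 0.069) and Pgm1 by -0.037 (-0.14 to 0.063). Limited access differed from water by -0.011, 0.0073 and 0.025 for the same genes. Hk2, the inducible hexokinase of muscle, stayed dim, with means of 5.46 in water, 5.44 with limited access and 5.35 with continuous ethanol under the filter of 6.86. A dimmer Hk1 probe set (1398725_at) was lower with continuous ethanol than in water by -0.16 ± 0.04 (p = 0.00079, adjusted p = 0.127) and is given after its value was seen. The brightest Hk1 probe set did not show that difference, and the array's hexokinase control probe sets differed by -0.052 to 0.030.

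Phosphofructokinase, the committed step of glycolysis, is encoded by Pfkl, Pfkm and Pfkp, the liver, muscle and platelet forms. Only Pfkl was among the 6 genes of smallest p. Its values (1367743_at) ran from 8.41 over 8.52 to 8.75 in water, from 8.48 over 8.67 to 8.85 with limited access and from 8.40 over 8.72 to 8.91 with continuous ethanol. Water had the lowest median, and the array of lowest value belonged to the continuous group. Pfkl with continuous ethanol exceeded water by 0.15 ± 0.05, a ratio of 1.11 (95% interval 0.039 to 0.26; p = 0.0099, adjusted p = 0.198), in 9 of 10 arrays against the water mean. With limited access the difference was 0.094 ± 0.055 (p = 0.0972, adjusted p = 0.972), and 0.046 without the 5 arrays that lay apart. Pfkm and Pfkp differed from water by 0.0047 and -0.0011 with continuous ethanol, each with an interval within -0.066 to 0.064.

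The PFKFB enzymes make and degrade the sugar bisphosphate that activates phosphofructokinase. Pfkfb2 (1388044_at), the heart form, ran from 8.17 over 8.40 to 8.50 in water, from 8.38 over 8.43 to 8.53 with limited access and from 8.38 over 8.48 to 8.68 with continuous ethanol. In both ethanol groups every array lay above the water mean of 8.34, while the upper water arrays reached into both. Continuous ethanol was above water by 0.15 ± 0.05, a ratio of 1.11 (95% interval 0.059 to 0.24; p = 0.0022, adjusted p = 0.151), and limited access by 0.099 ± 0.045 (p = 0.0369, adjusted p = 0.972).

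The dimmer probe sets of Pfkfb2 did not show this. Probe set 1369400_a_at differed by -0.072 and 1388063_a_at by -0.010 for continuous ethanol against water, and the mean of the tested Pfkfb2 probe sets by 0.023. When the endothelial and mural marker score entered the model, the brightest probe set differed by 0.099. Pfkfb3, the form of astrocytes and dividing cells, differed from water by 0.081 ± 0.044 (adjusted p = 0.358) with continuous ethanol, and its dimmer probe set 1397082_at by -0.10. Pfkfb4 differed by -0.012 and Pfkfb1 stayed below the filter, with means of 6.54, 6.50 and 6.46 in water, limited access and continuous ethanol.

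The 7 tested genes from aldolase to enolase differed from water by -0.053 to 0.062 with continuous ethanol and by -0.030 to 0.067 with limited access. Aldoa and Aldoc encode aldolases, of which aldolase C is the brain form enriched in astrocytes. Tpi1 encodes triose phosphate isomerase, which interconverts the products of aldolase. Its values (1367603_at) ran from 13.14 over 13.30 to 13.41 in water, from 13.27 over 13.36 to 13.40 with limited access and from 13.31 over 13.35 to 13.42 with continuous ethanol. The water arrays were the most spread (SD 0.085 against 0.038 and 0.041) and covered nearly the whole range of both other groups. Tpi1 exceeded water by 0.062 ± 0.030 with continuous ethanol (p = 0.0495, adjusted p = 0.309) and by 0.067 ± 0.030 with limited access (p = 0.0348, adjusted p = 0.972). The first of these was 0.041 after quantile normalization was applied again, 0.034 with array weights and 0.032 with the endothelial and mural score as a covariate.

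Pgk1 encodes phosphoglycerate kinase, the first ATP-yielding enzyme of the pathway. Its values (1388318_at) ran from 13.75 over 13.86 to 13.90 in water, from 13.80 over 13.89 to 13.96 with limited access and from 13.83 over 13.90 to 13.98 with continuous ethanol. The groups differed by less than their spread at the level of single arrays. Pgk1 exceeded water by 0.049 ± 0.027 with limited access (p = 0.0804, adjusted p = 0.972), and by 0.028 for the mean of its tested probe sets. Pgam1, phosphoglycerate mutase, was above water by 0.044 ± 0.024 with continuous ethanol (adjusted p = 0.375), and all 10 arrays exceeded the water mean.

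Aldoa (1367617_at) ran from 13.82 over 13.92 to 14.05 in water, from 13.92 over 13.96 to 14.04 with limited access and from 13.83 over 13.92 to 14.05 with continuous ethanol. Limited access arrays occupied the upper part of the range of both other groups. Aldoa with limited access exceeded continuous ethanol by 0.046 ± 0.029 (p = 0.130, adjusted p = 0.622) and water by 0.042 ± 0.030 (adjusted p = 0.972). Aldoc differed from water by -0.053 ± 0.034 with continuous ethanol (adjusted p = 0.434).

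Enolase, which makes phosphoenolpyruvate, has a general form encoded by Eno1 and a neuronal form encoded by Eno2. With continuous ethanol they differed from water by -0.025 ± 0.036 and -0.023 ± 0.029, and with limited access by -0.029 and -0.018. Gapdh, which couples oxidation of the triose to NADH, was read from array control probe sets in a fit that kept 38 of them. Its 5 prime probe set had means of 14.48 in water, 14.52 with limited access and 14.52 with continuous ethanol, and differed from water by 0.043 ± 0.038 with continuous ethanol (adjusted p = 0.593) and by 0.037 ± 0.038 with limited access. The other Gapdh control probe sets differed by 0.030 and 0.0035 for continuous ethanol against water.

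Lactate dehydrogenase forms from subunits encoded by Ldha, which favours lactate formation, and Ldhb, which favours pyruvate formation. Ldhb had the tightest estimate of all 32 genes and differed from water by 0.025 ± 0.020 with continuous ethanol (95% interval -0.016 to 0.067) and by 0.027 ± 0.020 with limited access (-0.014 to 0.069). Ldha ran from 12.77 over 13.00 to 13.06 in water, from 12.88 over 12.98 to 13.10 with limited access and from 12.85 over 12.99 to 13.17 with continuous ethanol. Medians of Ldha were thus nearly equal while arrays within each group spread. Ldha differed from water by 0.058 ± 0.044 with continuous ethanol (adjusted p = 0.518) and by 0.043 ± 0.044 with limited access (adjusted p = 0.972).

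Mpc1 and Mpc2 encode both subunits of the mitochondrial pyruvate carrier. With continuous ethanol they differed from water by 0.066 ± 0.033 (p = 0.0518, adjusted p = 0.315) and 0.062 ± 0.049 (adjusted p = 0.534). With limited access the differences were 0.042 ± 0.033 and 0.025 ± 0.049. The 2 subunits had similar differences in each comparison, and neither passed.

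In the pyruvate dehydrogenase complex, Pdha1 and Pdhb encode the subunits of the decarboxylase (E1) and Dld encodes the dihydrolipoamide dehydrogenase (E3), which also serves other dehydrogenase complexes. Pdhb (1371388_at) ran from 11.95 over 12.16 to 12.19 in water, from 11.86 over 12.15 to 12.25 with limited access and from 12.16 over 12.19 to 12.37 with continuous ethanol. The lowest continuous array lay close to the medians of the other groups, which both had a few low arrays. Continuous ethanol was above water by 0.11 ± 0.04, a ratio of 1.08 (95% interval 0.023 to 0.20; p = 0.0161, adjusted p = 0.218), and all 10 arrays exceeded the water mean. Limited access differed from continuous ethanol by -0.10 ± 0.04 (p = 0.0267, adjusted p = 0.526) and differed from water by 0.013 ± 0.044.

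Dld (1373016_at) likewise had its highest median and its narrowest range with continuous ethanol. Its limited access mean lay farther above water than that of Pdhb. Dld ran from 11.13 over 11.42 to 11.56 in water, from 11.06 over 11.50 to 11.60 with limited access and from 11.45 over 11.53 to 11.69 with continuous ethanol. Continuous ethanol was above water by 0.17 ± 0.06, a ratio of 1.13 (95% interval 0.045 to 0.30; p = 0.0096, adjusted p = 0.198), again in all 10 arrays against the water mean, and limited access by 0.080 ± 0.062 (adjusted p = 0.972). The limited access difference of Dld was 0.052 without water replicate 6 and 0.12 without limited access replicate 6.

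With limited access, the lowest arrays of both genes were replicates 6 and 7, which lay apart on the second component. In water, replicates 5 and 6, which also lay apart, were the lowest for Dld. Water replicate 7, which did not lie apart, was the lowest water array for Pdhb. Without water replicate 7, continuous ethanol was above water by 0.094 for Pdhb. Without the 5 arrays that lay apart, continuous ethanol was above water by 0.095 for Dld (adjusted p = 0.476) and by 0.086 for Pdhb (adjusted p = 0.458). Limited access then differed from continuous ethanol by -0.044 for Pdhb. When the array SD entered the model, the differences between continuous ethanol and water were 0.068 for Dld and 0.044 for Pdhb. That SD was 2.18 with continuous ethanol, 2.17 with limited access and 2.16 in water (exact permutation p = 0.0157 for continuous ethanol against water, 0.166 adjusted over 36 tests). Pdha1 differed from water by 0.0052 ± 0.031 with continuous ethanol, and its dimmer probe set by -0.0093.

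Pyruvate dehydrogenase is switched off by the kinases encoded by Pdk1, Pdk2 and Pdk3 and switched on by the phosphatase encoded by Pdp1. Pdk1 (1390203_at) ran from 9.76 over 9.91 to 10.09 in water, from 9.70 over 9.95 to 9.99 with limited access and from 9.90 over 9.96 to 10.16 with continuous ethanol. The highest array belonged to the continuous group, and all 10 limited access arrays lay below its mean. Limited access differed from continuous ethanol by -0.079 ± 0.042 (p = 0.0674, adjusted p = 0.549), and by -0.022 when the 3 prime to 5 prime log ratio of beta-actin and GAPDH entered the model. For beta-actin that ratio was 1.27 with continuous ethanol, 1.17 with limited access and 1.20 in water on the log2 scale. Its exact permutation p was 0.0146 between the schedules and 0.0219 for continuous ethanol against water. For the mean of both ratios the exact permutation p was 0.0205 between the schedules. Each of these was 0.166 after adjustment over 36 tests, so none passed.

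Pdp1 (1368910_at) ran from 10.83 over 10.88 to 11.09 in water, from 10.84 over 10.93 to 11.13 with limited access and from 10.64 over 10.87 to 11.09 with continuous ethanol. The continuous group reached lowest, and 9 of 10 limited access arrays lay above its mean. Pdp1 with limited access exceeded continuous ethanol by 0.095 ± 0.050 (p = 0.0686, adjusted p = 0.551). Pdk2 and Pdk3 differed from water by -0.098 ± 0.062 (adjusted p = 0.430) and 0.019 ± 0.038 with continuous ethanol. The kinases and the phosphatase thus held 2 positive and 2 negative differences in that comparison.

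Gpd1 encodes the cytosolic glycerol phosphate dehydrogenase, which reoxidises NADH while it turns dihydroxyacetone phosphate into glycerol phosphate, and Gpd2 encodes its mitochondrial partner in the shuttle. Gpd1 (1371363_at) had the smallest p of the 32 genes. Its values ran from 11.45 over 11.70 to 11.95 in water, from 11.37 over 11.61 to 11.75 with limited access and from 11.25 over 11.46 to 11.68 with continuous ethanol. The medians stepped down from water over limited access to continuous ethanol, and all 10 continuous arrays lay below the water mean although the groups overlapped. Continuous ethanol differed from water by -0.24 ± 0.07, a ratio of 0.846 (95% interval -0.38 to -0.11; p = 0.0011, adjusted p = 0.136).

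Limited access lay between, at -0.11 ± 0.07 from water (p = 0.122, adjusted p = 0.972) and 0.14 ± 0.06 above continuous ethanol (p = 0.0459, adjusted p = 0.534). A second Gpd1 probe set (1369560_at) differed by -0.28 ± 0.08 for continuous ethanol against water (p = 0.0011, adjusted p = 0.136), by -0.15 for limited access against water and by 0.13 between the schedules. Under the 18 alternative settings the brightest Gpd1 probe set differed between continuous ethanol and water by -0.26 to -0.21. It passed the threshold under none of them, and its smallest adjusted p was 0.072, with the oligodendrocyte marker score as a covariate. Mean oligodendrocyte scores were -0.0073 in water and 0.0022 with continuous ethanol, and the slope of Gpd1 on that score had an adjusted p of 0.206. Gpd2 differed from water by -0.016 ± 0.030 with continuous ethanol and -0.033 ± 0.030 with limited access, and its dimmer probe set 1387670_at by 0.11 and 0.10.

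Pyruvate carboxylase, which feeds pyruvate into oxaloacetate and is enriched in astrocytes, is listed as Pcx among the 38 genes and as Pc in the current rat gene table. The Pc probe set (1386917_at) lay outside the rule for choosing probe sets. Its means were 9.15 in water, 9.14 with limited access and 9.21 with continuous ethanol, a difference of 0.066 ± 0.037 for continuous ethanol against water (adjusted p = 0.374).

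**Figure D2:**
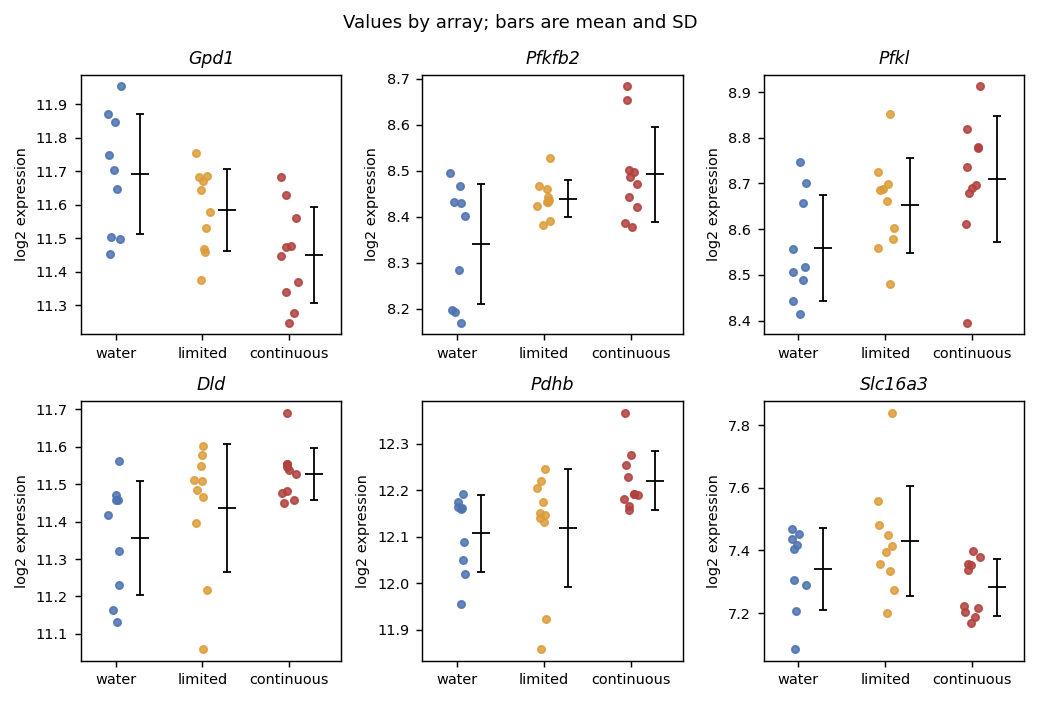
Log2 expression (vertical axes) of Gpd1, Pfkfb2, Pfkl, Dld, Pdhb and Slc16a3 on each array, by group (water, limited access, continuous ethanol); points are arrays and bars give the group mean and SD. Gpd1 is lowest by mean with continuous ethanol (11.45 against 11.69 in water), and the lowest arrays of Dld and Pdhb belong to water and limited access.

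Several genes had more than 1 tested probe set, which gives a second reading of the same transcript locus. This held for 13 of the 32 genes. The difference had the same sign in all tested probe sets of a gene for 6 of the 13 with continuous ethanol against water, for 6 with limited access against water and for 4 between the schedules. Gpd1 and Pdk2 kept the same sign in all 3 comparisons. For continuous ethanol against water the sign differed for Pfkm, Pfkfb2, Pfkfb3, Pdha1, Pdk3, Pgm1 and Gpd2.

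Genes of neighbouring pathways gave the context. Among 16 tested other glycolysis and pyruvate genes, 1 passed the threshold as lower with continuous ethanol than in water and 0 passed as higher. Of all tested probe sets, 0.0644% passed as lower and 0.0874% as higher. The median difference of the 16 genes was 0.0070. The other gene of smallest p, Slc2a4, differed by -0.11 (adjusted p = 0.291). The gene past the threshold was Slc2a1, which encodes GLUT1, the glucose transporter of brain endothelium and astrocytes. Slc2a1 (1370848_at) ran from 11.37 over 11.46 to 11.78 in water, from 11.21 over 11.36 to 11.54 with limited access and from 11.21 over 11.33 to 11.39 with continuous ethanol. All 10 continuous arrays lay below the water mean of 11.52, with a small overlap of the groups. The difference was -0.21 ± 0.05, a ratio of 0.862 (adjusted p = 0.0492), and limited access differed from water by -0.15 ± 0.05 (adjusted p = 0.972).

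The Slc2a1 call sat at the threshold. It passed under 8 of 18 alternatives and under 10 of 29 fits that left out 1 array, with adjusted p between 0.0271 and 0.121 in the latter, and the difference was -0.14 without the 5 arrays that lay apart (adjusted p = 0.331). Endothelial and mural markers, 15 of 16 of which were tested, had a mean score of 0.060 in water (range -0.069 to 0.34), 0.0087 with limited access (-0.12 to 0.19) and -0.062 with continuous ethanol (-0.28 to 0.047). The exact permutation p of continuous ethanol against water was 0.0231, or 0.166 adjusted over 36 tests. When that score entered the model, Slc2a1 differed by -0.15 (adjusted p = 0.523).

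None of the other lists had a gene past the threshold in any of the 3 comparisons. These were the pentose phosphate pathway (8 tested), the tricarboxylic acid cycle with the malate-aspartate shuttle (21), glycogen metabolism (13) and other genes and targets of the hypoxia-inducible factors (17). Their median differences for continuous ethanol against water were 0.070, 0.035, -0.019 and -0.034, beside 0.0047 for all probe sets. For limited access against water they were 0.0059, 0.010, -0.026 and -0.023.

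The genes of smallest p in these lists are named with their values for continuous ethanol against water. Prps1 and Rpe, of ribose phosphate metabolism, differed by 0.12 (adjusted p = 0.204) and 0.16 (adjusted p = 0.269). Suclg1 and Mdh2, of the tricarboxylic acid cycle, differed by 0.062 (adjusted p = 0.255) and 0.051 (adjusted p = 0.351). Gsk3b, the kinase that inhibits glycogen synthase, differed by 0.20 (adjusted p = 0.306), and Pygm, muscle glycogen phosphorylase, by -0.12 (adjusted p = 0.337). Egln3, an oxygen-sensing prolyl hydroxylase, differed by 0.13 (adjusted p = 0.202), and P4ha1, a collagen prolyl hydroxylase, by -0.10 (adjusted p = 0.203).

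For limited access against water the adjusted p of each listed gene was 0.972 or higher. Eno3, the muscle enolase, differed by -0.16, Prps1 by 0.055, Pgd by -0.038, Mdh2 by 0.078, Suclg2 by -0.12, Phkb by -0.10, Phka1 by -0.11, Vegfa by -0.059 and Ndrg1 by -0.088. Between the schedules the genes of smallest p were Pdhx at -0.11, the binding protein of the pyruvate dehydrogenase complex, Eno3 at -0.12, Pgls at -0.090, Rpia at -0.064, Sdhc at -0.082, Ogdh at 0.073, Phkb at -0.083, Gbe1 at -0.078, Arnt at 0.12 and P4ha1 at 0.078, with adjusted p between 0.531 and 0.623.

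Within groups, some pathway genes varied between arrays together with markers of cell types. Each array was given a score for each of 8 marker lists and 4 technical measures, and the slope of every probe set on each of the 12 measures was fitted with group kept in the model. These fits were added after the data were seen. Pearson's r and Spearman's rho below are over 29 arrays with group means removed, with permutations of arrays within groups, and adjusted p-values of slopes are over the 21729 probe sets. All tested markers of the lists named here were above the filter on dim probe sets, and the part of these cells in the results was not tested further.

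Ldha followed the oligodendrocyte score most closely. Oligodendrocyte markers (11 of 12 tested) had scores from -0.17 to 0.18 in water, from -0.12 to 0.17 with limited access and from -0.15 to 0.12 with continuous ethanol. Arrays with a higher score had less Ldha (r = -0.85, rho = -0.82, permutation p = 1e-05, the smallest that 100000 permutations can give, slope adjusted p = 2.43e-04). The r was -0.85 without the 2 arrays of most extreme score and -0.89 among the 24 arrays that did not lie apart. Slc2a3 gave r = -0.76 (rho = -0.83, permutation p = 2e-05, slope adjusted p = 0.0063), -0.74 without the 2 extreme arrays and -0.70 among the 24. These were 2 of 32 genes (6.25%), against 1.66% of all probe sets.

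Both genes also followed markers of cortical pyramidal neurons, in the opposite direction. These markers (7 of 8 tested) had scores from -0.37 to 0.13 in water, from -0.16 to 0.30 with limited access and from -0.32 to 0.26 with continuous ethanol. Slc2a3 gave r = 0.79 (rho = 0.77, permutation p = 1e-05, slope adjusted p = 0.0013), Ldha r = 0.68 (rho = 0.59, permutation p = 0.00014), Pfkp r = 0.65 (rho = 0.59, permutation p = 0.00024) and Slc16a7 r = 0.62 (rho = 0.67, permutation p = 0.00054). Without the 2 extreme arrays these r were 0.69, 0.55, 0.52 and 0.64, and among the 24 arrays 0.75, 0.74, 0.64 and 0.74. They were 4 of 32 genes (12.5%), against 5.39% of all probe sets. The oligodendrocyte and cortical scores themselves deviated in opposite directions on most arrays, as in water replicate 6 (0.19 and -0.30). Some arrays did not follow this, such as continuous ethanol replicate 7 (-0.15 and -0.12). The relations of Ldha and Slc2a3 to these scores are thus not separate findings. When the cortical score entered the model, Slc2a3 differed by 0.028 and Slc16a7 by 0.051 for limited access against water.

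Astrocyte markers (13 of 14 tested) had scores from -0.043 to 0.11 in water, from -0.11 to 0.028 with limited access and from -0.10 to 0.25 with continuous ethanol. Aldoc, the astrocyte-enriched aldolase, followed the score (r = 0.71, rho = 0.67, permutation p = 0.00013, slope adjusted p = 0.0072), and r was 0.58 without the 2 extreme arrays and 0.71 among the 24. Pgm1 gave r = 0.64 (rho = 0.58, permutation p = 0.00103), and 0.41 without the 2 extreme arrays. Slc16a7, whose product MCT2 is known from neurons, went the other way (r = -0.73, rho = -0.65, permutation p = 0.00025, slope adjusted p = 0.0013), with r of -0.57 without the 2 extreme arrays and -0.82 among the 24. These were 3 of 32 genes (9.38%), near the 10.3% of all probe sets. When the astrocyte score entered the model, the difference of Slc16a7 between limited access and water was 0.030 in place of 0.10.

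Slc16a7 and Pgm1 also followed microglial markers (12 of 12 tested), with r = -0.64 (rho = -0.52) and 0.55 (rho = 0.38), for 6.25% of the genes against 8.49% of all probe sets. Pgm1 followed the 3 prime to 5 prime signal of GAPDH (r = 0.64, rho = 0.57; 3.12% against 4.11%). None of the 32 genes had a slope past the threshold on the medium spiny neuron, endothelial and mural, leptomeningeal or red blood cell scores, on the beta-actin ratio or on the mean of both ratios, where 3.41%, 5.30%, 5.78%, 0.0828%, 1.21% and 0% of all probe sets had.

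The SD of an array's values summarises its contrast and is computed from the same expression values. Whether it reflects technique or tissue was not tested. Of the 32 genes, 8 (25%) followed the array SD, beside 20.2% of all probe sets. Slc16a3 followed it downward (r = -0.78, rho = -0.75, permutation p = 2e-05, slope adjusted p = 2.11e-04), with r of -0.69 without the 2 extreme arrays and -0.67 among the 24. Dld (r = 0.69, rho = 0.66, permutation p = 0.00018), Pdhb (r = 0.67, rho = 0.55, permutation p = 0.00037), Pgk1 (r = 0.66), Mpc2 (0.56) and Pdk1 (0.50) followed it upward. Without the 2 extreme arrays, r was 0.50 for Dld and 0.45 for Pdhb. For Dld and Pdhb, r among the 24 arrays was 0.55 and 0.44. Pdk2 (r = -0.49) and Pgm1 (-0.52) followed it downward, but r of Pdk2 was -0.20 without the 2 extreme arrays, so that relation rests on them.

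**Figure D3:**
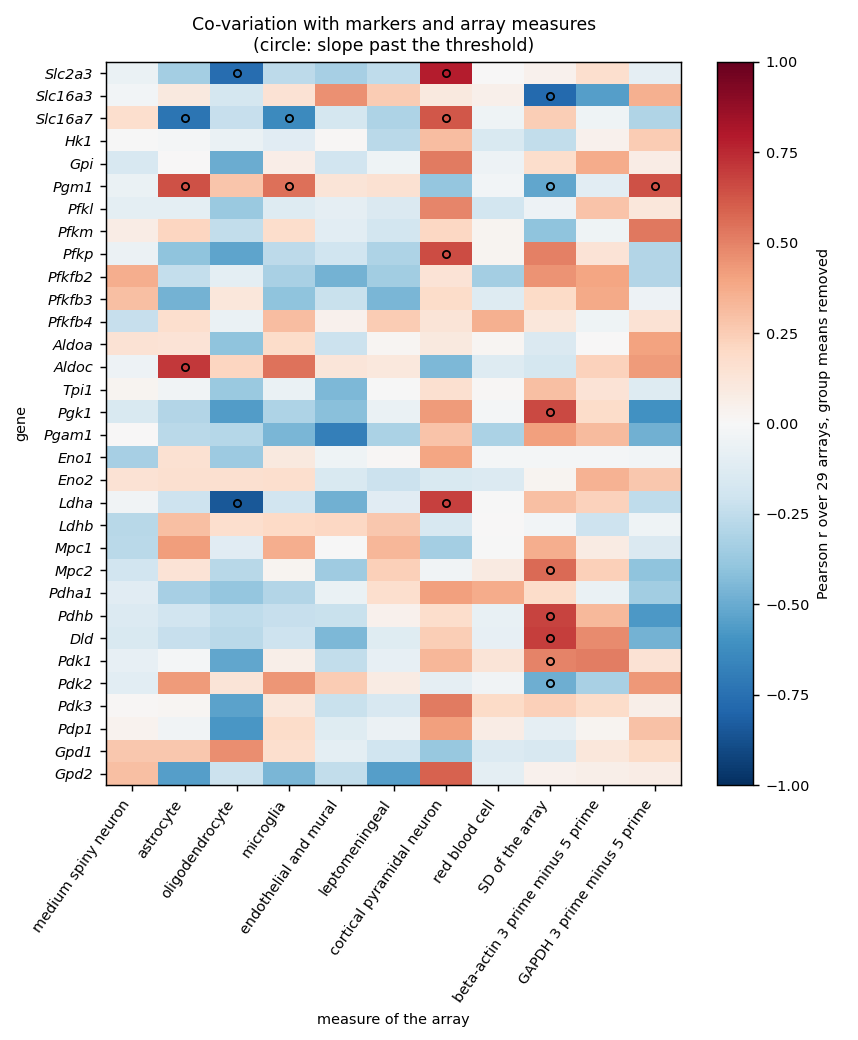
Pearson's r over 29 arrays, group means removed, between each of the 32 tested genes (vertical axis) and the array measures (horizontal axis). Of the 12 measures, the mean of the beta-actin and GAPDH ratios is not shown. Colour gives r and circles mark slopes with an adjusted p under 0.05. Ldha and Slc2a3 are negative for oligodendrocyte markers (-0.85 and -0.76) and positive for cortical markers (0.68 and 0.79), and the column for the array SD holds 8 circles.

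Partners in the pathway were then set against each other in 12 pairs chosen after the data were seen, so their r over arrays, group means removed, is a description with no test. Pdhb and Dld, both parts of the pyruvate dehydrogenase complex, had r = 0.87 (rho = 0.82), the highest of the 496 pairs of the 32 genes. The r was 0.75 without the 2 arrays of most extreme Pdhb and 0.77 with the array SD removed. Since 5 arrays lay apart, r was also taken among the other 24, where it was 0.74 (rho = 0.49). Pdha1, the partner of Pdhb in E1, gave r = 0.34 with Pdhb and 0.27 with Dld.

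Mpc1 and Mpc2 gave r = 0.61 (rho = 0.59), 0.60 without the 2 extreme arrays and 0.79 among the 24 arrays. Ldha and Slc2a3 gave r = 0.74 (rho = 0.67), 0.73 without the 2 extreme arrays and 0.76 among the 24. Among forms of the same enzyme, r was -0.065 for Ldha and Ldhb, -0.0015 for Eno1 and Eno2, 0.19 for Aldoa and Aldoc, and -0.047 for Gpd1 and Gpd2. For phosphofructokinase it was 0.35 between Pfkl and Pfkm, 0.17 between Pfkl and Pfkp and 0.0056 between Pfkm and Pfkp. Some of these r differed in sign between groups, as for Gpd1 and Gpd2 (-0.71 in water and 0.61 with limited access) and for Eno1 and Eno2 (0.44 and -0.61). Over all 496 pairs of the 32 genes the median r was 0.098 (quartiles -0.13 and 0.28), beside 0.002 (-0.19 and 0.20) for all pairs of tested probe sets.

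**Figure D4:**
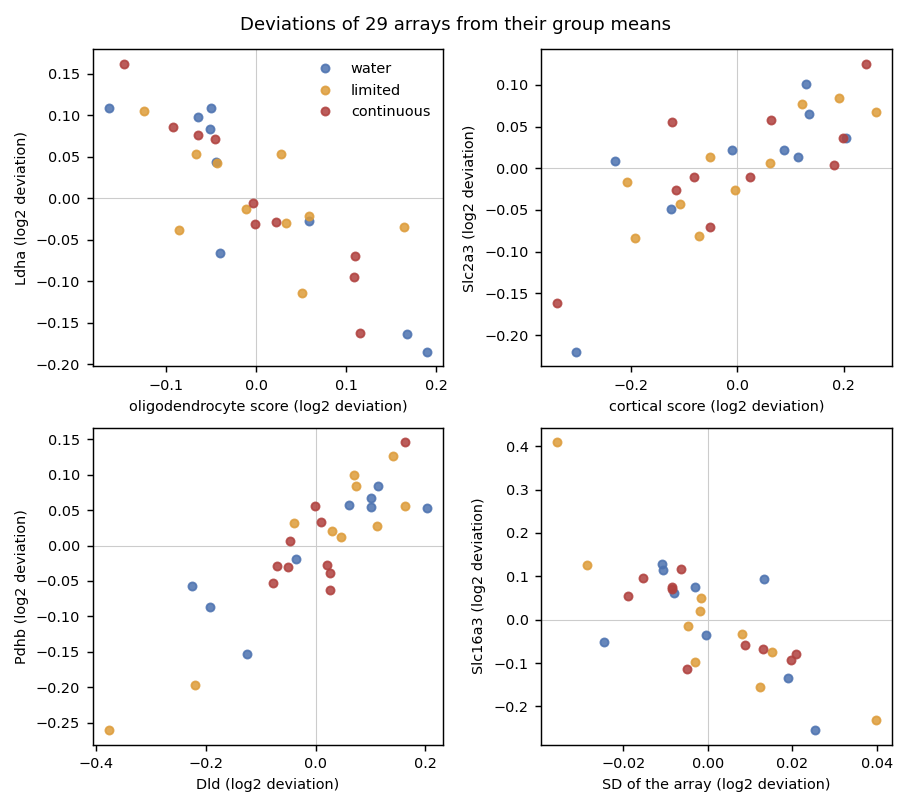
Deviations of the 29 arrays from their group means, on log2 scales: Ldha against the oligodendrocyte score, Slc2a3 against the cortical score, Pdhb against Dld and Slc16a3 against the SD of the array; colours give the groups. Ldha declines with the score (r = -0.85), Slc2a3 and Pdhb increase along their horizontal axes (r = 0.79 and 0.87), and Slc16a3 declines (r = -0.78).

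The sequences upstream of Ldha, Pdhb and Dld are shown because these genes had the closest relations described above, Ldha with the oligodendrocyte score and Pdhb with Dld. Many glycolytic genes are known targets of hypoxia-inducible factors and of E-box factors, and sites of these factors can hold the letters ACGTG. Other forms of these sites were not searched, so a sequence without these letters may still hold one. RefSeq promoters of build GRCr8 were searched for ACGTG on both strands in the 250 bases before the annotated start. The letters were present for 15 of 33 genes of the pathway with an entry (45.5%), against 4959 of 27457 genes (18.1%) and 5547 of 33469 promoters (16.6%) overall. Those other genes were not matched for base composition or kind of gene, so the shares are not read as an enrichment of sites. Pgk1, Slc2a3, Pdp1, Gpd1 and Pcx had no entry. A match describes letters only, not binding.

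Capitals mark ACGTG or its reverse complement CACGT, and both overlap in CACGTG. The 250 bases before Ldha (chr1:106507842-106508091, plus strand), before Pdhb (chr15:19182539-19182788, plus strand) and before Dld (chr6:53652348-53652597, minus strand) read 5′ to 3′ as follows.
Ldha: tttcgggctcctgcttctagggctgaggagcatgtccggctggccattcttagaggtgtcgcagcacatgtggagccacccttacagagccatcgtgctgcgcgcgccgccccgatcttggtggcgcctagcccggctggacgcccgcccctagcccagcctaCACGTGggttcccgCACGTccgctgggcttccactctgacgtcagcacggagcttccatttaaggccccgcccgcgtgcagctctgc
Pdhb: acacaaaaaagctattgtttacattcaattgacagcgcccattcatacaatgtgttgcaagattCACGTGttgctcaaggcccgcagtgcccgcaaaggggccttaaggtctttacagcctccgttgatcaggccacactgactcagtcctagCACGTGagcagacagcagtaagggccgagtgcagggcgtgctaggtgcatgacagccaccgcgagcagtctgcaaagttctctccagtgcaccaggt
Dld: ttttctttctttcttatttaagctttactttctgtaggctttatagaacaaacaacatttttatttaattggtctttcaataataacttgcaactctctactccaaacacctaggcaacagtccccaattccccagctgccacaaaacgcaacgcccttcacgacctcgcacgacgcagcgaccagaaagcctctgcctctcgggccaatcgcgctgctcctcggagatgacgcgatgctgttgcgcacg

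Ldha held the letters in 2 stretches, CACGTG from 87 and CACGT from 73 bases before the start. Pdhb also held 2 stretches, both CACGTG, from 186 and 97 bases before the start. Dld, which varied with Pdhb between arrays, held none in this window. Slc16a3, Pfkl, Pfkfb2 and Tpi1 held none, Aldoc held 1 at 31 bases and Slc16a7 1 at 239 bases before the start.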

How the data were processed

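Gene expression was measured in 29 samples of P rat nucleus accumbens shell on Affymetrix rat arrays. RNA was extracted with Trizol and RNeasy columns and labelled as biotinylated cRNA, per the labels' protocols. What the authors deposited is log2 expression after RMA, per the submitters' processing notes; RMA corrects background, quantile normalizes arrays and summarises probes, so it would hide a change shared by all transcripts. Its version and the array batches are not given in the sources used here.

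The table held 31099 probe sets, of which 20832 had 1 symbol in the platform table, 436 several and 9831 none. The 57 control probe sets and the dimmest 30% by mean over all arrays (at or below 6.86) were left out, and 21729 were tested. One model with group as its factor was fitted to all arrays with lmFit and eBayes (limma 3.58.1, statmod 1.5.0, R 4.3.3), and two-sided p-values were adjusted by Benjamini-Hochberg over all tested probe sets, with a threshold of 0.05. Differences are in log2 units with the standard error (SE). Array measures were compared by exact permutation tests. A marker score averages, over markers, the deviation of the log2 value from its mean.

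Full values were given for the 6 genes of smallest p in each comparison, and in other pathways for genes past the threshold or else the 2 of smallest p. The genes and lists were chosen with earlier results of these data known. Alternatives were no filter, a filter at 50%, repeated quantile normalization, median centring, a robust trended prior, weighting of arrays, a block for replicate number, covariates for 3 prime to 5 prime signal and array SD, 1 probe set per gene, the mean of a gene's probe sets, only 2 groups at a time, and leaving out each array or the 5 that lay apart. Covariates for 4 marker scores and a fit with 38 control probe sets (21767 in all) were chosen after seeing the data. The procedure was tested on simulated data whose noise was independent between probe sets and arrays, unlike the arrays here. That check therefore does not show which sizes of difference could be missed in these data. Deviations of same-numbered arrays had a median correlation of 0.078 over 28 pairs (-0.24 to 0.34), beside -0.012 for arrays of different number. Replicate numbers were therefore not treated as pairs, although such a low correlation cannot exclude a pairing of weak effect.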

Additional observations from a re-analysis of the deposited data

Results flagged for a closer look

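Among 96 sets of arrays (32 genes in 3 groups), 7 held an array whose gap to its nearest neighbour took an unusually large part of the range of the group by Dixon's criterion, which chance alone gives in about 1 of 20 sets. Limited access replicate 6 was the lowest of its group for Tpi1 (13.27, next 13.34), Pdha1 (12.68, next 12.78) and Mpc2 (11.52, next 11.82). Limited access replicate 7 was the lowest for Pdk1 (9.70, next 9.87). Water replicate 6 was the lowest for Slc2a3 (10.82, next 10.99). These 3 arrays are among the 5 that lay apart on the second component. Limited access replicate 10 was the highest of its group for Gpi (13.09, next 12.94), and continuous ethanol replicate 4 the highest for Dld (11.69, next 11.55).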

How the results depend on the processing

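No pathway gene passed the threshold in any comparison under any of the 18 alternatives or the 29 fits that left out 1 array. The median difference of the genes, which had no test, was 0.012 for continuous ethanol against water and ran from 0.0048 to 0.027 when 1 array was left out. It was -0.00088 with quantile normalization again, -0.0019 with the cortical score, which was chosen after seeing the data, and at most 0.022 under the alternatives. For limited access against water (0.025) it ran from 0.016 to 0.030 without 1 array and from 0.011 to 0.028 under the alternatives. Between the schedules (-0.0049) it ran from -0.014 to 0.0024 and from -0.0079 to 0.012, so its direction depends on the setting. Some settings cannot change a difference, such as the robust prior, 2 groups at a time or leaving out an array of the third group. With such values included, 1213 of 1219 single values of the named genes kept their direction and none passed. The exceptions were Slc16a3 for continuous ethanol against water (-0.058), which was 0.057 with the array SD and 0.014 with the endothelial and mural score as a covariate, and Pdhb for limited access against water (0.013), which was -0.00049 with the array SD, -0.0021 with the astrocyte score, -0.0014 without limited access replicate 5, and -0.0065 (without water replicate 7) to 0.042 (without limited access replicate 6) when 1 array was left out. The cause was not tested. The number of probe sets past the threshold for continuous ethanol against water was 33. It was 11 with the array SD as a covariate, 20 with 1 probe set per gene, 12 without the 5 arrays that lay apart, 54 with the oligodendrocyte score and 19 with the endothelial and mural score. Leaving out 1 array gave 18 (water replicate 5) to 94 (water replicate 4), with 59 without water replicate 8 and 66 without limited access replicate 6. For limited access against water the count was 0, or 1 with array weights. Between the schedules it was 1, with 0 under the replicate block, the 3 prime to 5 prime covariate, the array SD covariate, 1 probe set per gene and without the 5 arrays, 2 with the astrocyte score, and 0 to 3 when 1 array was left out. Little pairing by replicate number was seen (2 of 29 arrays correlated best with their own number). With that number as a block, the count for continuous ethanol against water was 28 and the block changed no call of a pathway gene. Fits with 2 groups at a time gave no test among all 3, and Slc16a3 was below the stricter filter. Signal over background limits dim genes such as Slc16a3, Hk2 and Pfkfb1, and 9 or 10 arrays per group left standard errors of 0.020 to 0.067.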
